A study of Rattus norvegicus with 4 samples.

Results

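Genes of the Nrf2, glutathione and antioxidant defence were examined across 4 rat cell samples. The 41 genes listed cover glutathione transferases, peroxide and quinone defence, NADPH supply and iron storage, with the transcription factor Nfe2l2 and its partner Keap1. They were matched by accession to probes of the arrays. This found 38 of them among 8927 named genes, while Gsta4, Blvrb and Pgd had no named probe. The genes were listed with earlier results of these arrays known, so their values are given as a description, and none was tested.

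The samples were neurons derived from olfactory bulb (OB) neural stem cells, neurons derived from hippocampal (HPC) neural stem cells, OB-derived neural stem cells and HPC-derived neural stem cells. All came from Fisher 344 rats, and the series' title calls the tissues adult. Each group was measured on 1 single-colour Agilent array of total RNA mixed from 3 independent experiments, so no spread between cultures could be had. The conditions that turned stem cells into neurons, and any treatment that the groups shared, are not given in the sources used here.

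Nrf2, the protein made from Nfe2l2, is held and marked for destruction by Keap1. Oxidants and electrophiles modify Keap1, and Nrf2 then reaches the nucleus, pairs with small Maf proteins and binds antioxidant response elements near its target genes. These targets include Nqo1, many glutathione transferases, the enzymes that make glutathione, and suppliers of NADPH. In brain, astrocytes are known for stronger activity of this pathway than neurons and for passing glutathione precursors to them.

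Promoter sequences are shown because antioxidant response elements lie near known Nrf2 targets, which are a part of the genes listed. They come from RefSeq (build GRCr8), run from 250 bases before to 50 bases after the annotated gene start, and were found for 34 of the 41 genes. The core element TGACNNNGC, searched on both strands, was present in 12 of these 34 genes (35.3%). It was present in 12.1% of all 33469 promoters in the table and in 14.2% of 7258 genes on the array that had one. The longer form TGACTCAGC is a special case of the core and also holds the TGACTCA site of AP-1 factors. It was present in Ephx1, Me1, Gstp1 and Prdx1, which is 4 of the 34 genes (11.8%). The share was 0.415% of all promoters and 0.551% of the 7258 array genes. A match is a run of letters and was not tested for binding.

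The stretches around TGACTCAGC are shown with the element in capitals, read on the gene's own strand. The Ephx1 match began 57 bases before the gene start (chr13:95263130-95263210, minus strand) and the Me1 match 167 bases before it (chr8:96540367-96540447, minus strand). The Gstp1 match began 61 bases before the start (chr1:210769722-210769802, minus strand) and the Prdx1 match 135 bases before it (chr5:135383735-135383815, plus strand). In Ephx1 and Prdx1 the element lies on the opposite strand, so its reverse complement is in capitals.
Ephx1: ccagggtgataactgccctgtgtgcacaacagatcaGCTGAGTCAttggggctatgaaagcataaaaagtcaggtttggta
Me1: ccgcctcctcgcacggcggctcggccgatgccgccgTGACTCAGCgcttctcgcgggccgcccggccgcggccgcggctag
Gstp1: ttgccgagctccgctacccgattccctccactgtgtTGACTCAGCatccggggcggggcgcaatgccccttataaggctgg
Prdx1: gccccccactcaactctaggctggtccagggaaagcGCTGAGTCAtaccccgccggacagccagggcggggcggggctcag

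The whole windows of Gsta1, Akr1b8 and Nqo1 are shown because these genes had the largest source difference between stem cells. Gsta1 (chr9:31216483-31216782, minus strand) held 1 core match, TGACTTTGC, which began at base 31 after the start and is in capitals. Akr1b8 (chr4:63964171-63964470, plus strand) and Nqo1 (chr19:52220218-52220517, minus strand) held no match in this window, which says nothing of sequence outside it.
Gsta1: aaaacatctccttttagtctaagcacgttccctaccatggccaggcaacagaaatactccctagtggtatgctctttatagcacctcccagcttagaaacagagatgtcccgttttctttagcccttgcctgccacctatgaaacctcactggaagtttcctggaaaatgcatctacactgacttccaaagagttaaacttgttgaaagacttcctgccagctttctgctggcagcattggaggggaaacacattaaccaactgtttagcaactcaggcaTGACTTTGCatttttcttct
Akr1b8: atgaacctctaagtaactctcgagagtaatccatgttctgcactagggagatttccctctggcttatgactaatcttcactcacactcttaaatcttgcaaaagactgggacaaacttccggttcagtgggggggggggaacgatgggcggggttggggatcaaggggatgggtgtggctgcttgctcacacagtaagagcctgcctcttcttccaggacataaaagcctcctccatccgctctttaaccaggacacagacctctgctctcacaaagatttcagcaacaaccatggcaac
Nqo1: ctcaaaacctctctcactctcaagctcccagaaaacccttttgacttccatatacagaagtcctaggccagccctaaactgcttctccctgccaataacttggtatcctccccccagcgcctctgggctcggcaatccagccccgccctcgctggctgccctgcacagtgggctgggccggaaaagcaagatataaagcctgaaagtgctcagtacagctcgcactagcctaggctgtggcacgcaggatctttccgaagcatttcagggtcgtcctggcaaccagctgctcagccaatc

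Levels are log2 processed signal minus the array's 75th percentile, so that 0 is the signal below which 75% of that array's probes lie. A difference of 1 log2 unit (2-fold) was called. Between 60.2% and 74.0% of probes were well above background on an array. For probes printed 10 times, the spots' SD had a median of 0.0628 to 0.0974 on the log2 scale, which measures spot noise and not variation of cultures. Where a probe was not well above background on 1 of 2 arrays, the difference is a bound and is given as "at least". Levels of different genes are not compared, since probes differ in brightness. Of the 38 genes, 35 were well above background on all 4 arrays. Gpx3 was so on the neuron arrays alone, Gclm on both OB arrays, and Srxn1, whose product repairs overoxidized peroxiredoxins, on none.

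The labels of the neuron arrays were set against markers. Of 9 measured markers of mature neurons, 2 were higher and 4 lower on the neuron array in OB cells, and 1 higher and 4 lower in HPC cells. Their signals, in multiples of the 75th percentile, summed to 6.11 on the OB neuron and 6.77 on the HPC neuron array, against 57.8 on the OB and 68.1 on the HPC stem cell array. These sums follow the brightest probes, Gap43 (log2 levels of 1.57 and 0.36 on the OB and HPC neuron arrays, against 4.68 and 4.67 on the OB and HPC stem cell arrays) and Mapt (-1.53 and 1.71, against 4.91 and 5.33, in the same order). Snap25, a synaptic gene, went the other way, 8.43-fold higher in OB and 15.6-fold higher in HPC neurons, and so did the young neuron marker Stmn2, at least 32.1-fold and at least 56.9-fold higher in the same order. These 4 were named after their values were seen. Markers of young neurons (8 measured) summed to 1.92 and 4.20 on the OB and HPC neuron arrays, against 13.3 and 9.73 on the OB and HPC stem cell arrays. By 2-fold or more, 1 of 8 was higher and 6 lower on the neuron array in OB cells. In HPC cells 1 of 7 compared was higher and 3 lower. For pericytes, fibroblasts and smooth muscle (8 measured, all higher on the neuron arrays in both sources) the sums were 550.1 and 390.4 on the OB and HPC neuron arrays, against 0.272 and 0.394 on the OB and HPC stem cell arrays. All 8 of these were well above background on each neuron array and 2 on each stem cell array. Astrocyte markers (9 measured) summed to 144.0 and 141.2 on the OB and HPC neuron arrays, against 31.9 and 41.9 on the stem cell arrays of the same order. Microglia and macrophage markers (9 measured) summed to 8.05 and 7.26 on the neuron arrays, against 0.923 and 0.961 on the stem cell arrays, in that order. In the order OB neurons, HPC neurons, OB stem cells and HPC stem cells, stem cell markers (7 measured) summed to 239.5, 213.3, 215.3 and 261.5, endothelial markers (5 measured) to 7.97, 9.34, 0.260 and 0.335, and oligodendrocyte markers (7 measured) to 32.7, 32.8, 108.4 and 178.9. The oligodendrocyte sums follow Sox10, at 4.23, 4.30, 6.47 and 7.22 in this order. Of these markers, 2 of 7 were higher and 3 lower in OB neurons, and 0 of 6 higher and 2 lower in HPC neurons. Among the endothelial markers, Pecam1 was well above background on no array. Cldn5 was so on the neuron arrays alone, where it was dim (-5.14 in OB and -4.71 in HPC neurons). More neuronal markers were thus lower than higher by 2-fold on the arrays labelled neurons, although some were higher. The stromal, astrocyte, microglial and endothelial sums were higher and the oligodendrocyte sum lower on these arrays, and "neurons" below means the label. The part of these cells in the antioxidant differences was not tested, and fewer cells of a type cannot be told apart from less RNA per cell.

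**Figure D1:**
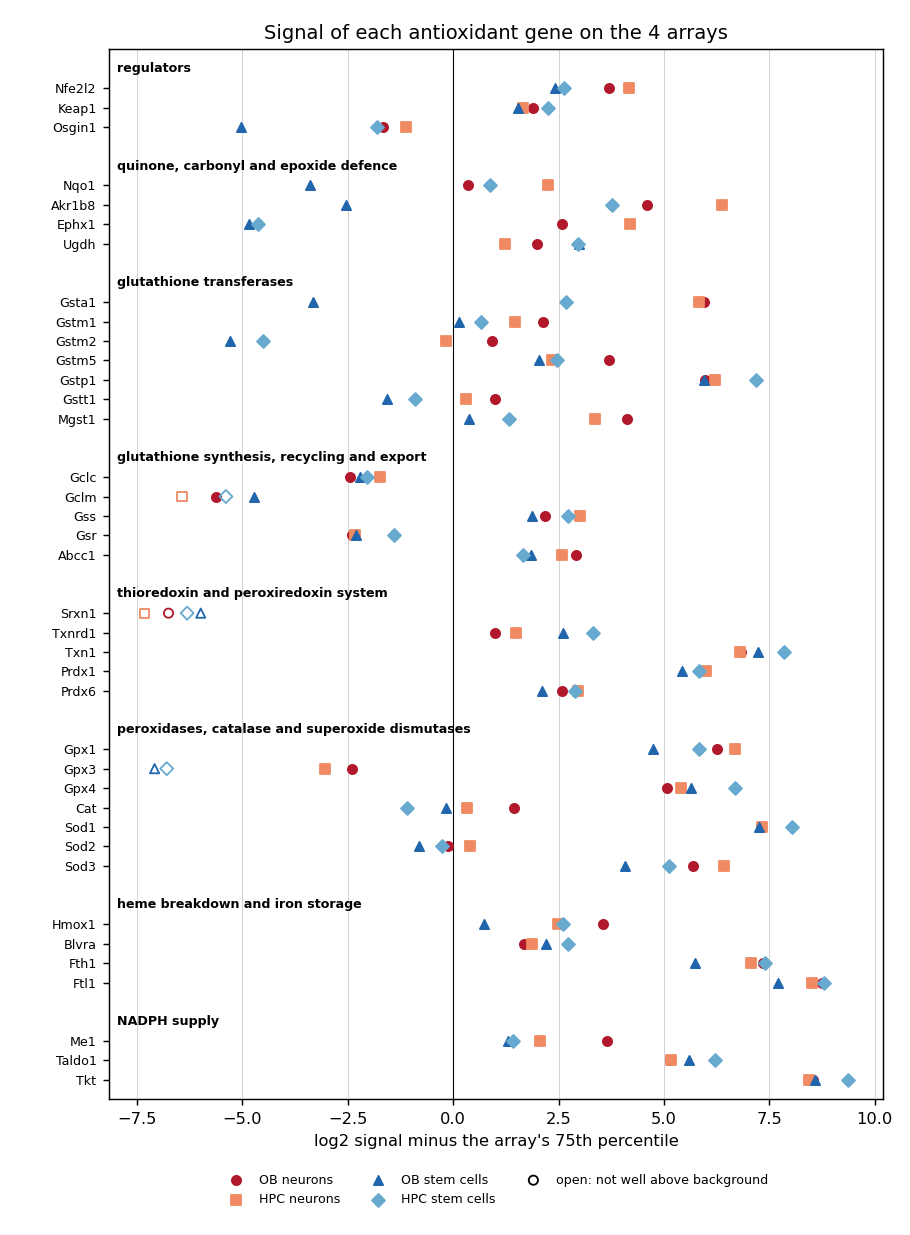
Signal of each of the 38 antioxidant genes on the OB neuron, HPC neuron, OB stem cell and HPC stem cell arrays, in log2 units relative to the array's 75th percentile, grouped by role; each point is 1 array, and open points were not well above background. The OB stem cell points of Osgin1, Nqo1, Akr1b8 and Gsta1 stand apart to the left (levels -5.03, -3.41, -2.54 and -3.32), and both stem cell points of Ephx1 and Gstm2 lie to the left of the neuron points.

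The plot of levels by array shows 3 arrangements, which overlap. In Akr1b8, Gsta1, Nqo1 and Osgin1, the OB stem cell array lay far below the other arrays. In genes such as Ephx1, Gstm2, Gstt1, Mgst1 and Gpx3, both stem cell arrays lay below both neuron arrays. This was also so in Akr1b8, Gsta1 and Osgin1. In others, such as Prdx1, Sod1 and Gclc, the 4 arrays lay within 1 log2 unit. Among the 35 genes well above background on every array, the OB stem cell array was the lowest for 24 (68.6%), against 32.8% of 5495 genes on the array. With spike-in scaling these were 10 genes (28.6%) and 5.04%.

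Among the listed genes, the difference between OB and HPC stem cells was largest in Akr1b8, Gsta1, Nqo1 and Osgin1. Akr1b8, an aldo-keto reductase that clears reactive carbonyls, had levels of -2.54 in OB stem cells and 3.76 in HPC stem cells, a signal 78.9-fold lower in OB stem cells. Gsta1, an alpha-class glutathione transferase, was at -3.32 in OB stem cells and 2.68 in HPC stem cells (63.9-fold lower). Nqo1, which reduces quinones by 2 electrons at once and is a standard readout of Nrf2 activity, was at -3.41 in OB stem cells and 0.88 in HPC stem cells (19.5-fold lower). Osgin1, an oxidative stress response gene, was at -5.03 in OB stem cells and -1.82 in HPC stem cells (9.27-fold lower). All 4 remained well above background in OB stem cells. Several other listed genes of the pathway did not reach 2-fold in this comparison, and the further genes that did are given below. Of the enzymes that make glutathione, Gclc differed by -0.16, Gss by -0.84 and Gclm by at least 0.67. The NADPH supplier Me1 differed by -0.13, Ephx1 by -0.22, Ugdh by 0.03 and Txnrd1 by -0.72. The 3 probes of Txnrd1 lay between -0.72 and -0.04.

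Heme and iron genes were also lower in OB than in HPC stem cells, with smaller sizes. Hmox1, which breaks down heme, was at 0.72 in OB stem cells and 2.59 in HPC stem cells, a difference of -1.87. The ferritin heavy chain gene Fth1 was at 5.73 in OB stem cells and 7.41 in HPC stem cells (difference -1.67), and both of its probes showed it (-1.67 and -1.65). The ferritin light chain gene Ftl1 was at 7.71 in OB stem cells and 8.80 in HPC stem cells, and its 4 probes differed by between -1.25 and -1.09. Blvra, which turns the biliverdin made by Hmox1 into bilirubin, differed by -0.51.

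In all, 11 of 36 genes compared were lower in OB than in HPC stem cells by 2-fold or more (30.6%), against 6.98% of 6028 genes, and 0 were higher, against 4.16%. Since these values were known when the genes were listed, nothing is read from those shares. The other genes called were Gstp1 (-1.24), the peroxidase genes Gpx1 (-1.08) and Gpx4 (-1.05), and Sod3 (-1.04), which encodes the secreted superoxide dismutase. Catalase (Cat), which breaks down hydrogen peroxide, had a positive difference of 0.93, with levels of -0.17 in OB and -1.10 in HPC stem cells. The median difference was -0.75 over these genes and -0.43 over all genes. Between these arrays 0 of 5 astrocyte markers were higher and 1 lower in OB stem cells, and 3 of 7 young neuron markers were higher and 1 lower; their part in these differences was not tested.

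Under all alternative processing, 5 of the 11 calls were kept, those of Akr1b8, Gsta1, Nqo1, Osgin1 and Hmox1. Their values ranged from -6.32 to -5.45 for Akr1b8, from -6.02 to -5.05 for Gsta1, from -4.31 to -3.33 for Nqo1, from -3.23 to -1.78 for Osgin1 and from -1.89 to -1.02 for Hmox1. The calls of Gstp1, Gpx1, Gpx4, Sod3 and Ftl1 were lost with quantile normalization (-0.62, -0.59, -0.45, -0.62 and -0.40) and with spike-in scaling, where that of Fth1 was lost too (-0.82). With spike-in scaling, the median of the listed genes was 0.11 and that of all genes 0.42.

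**Figure D2:**
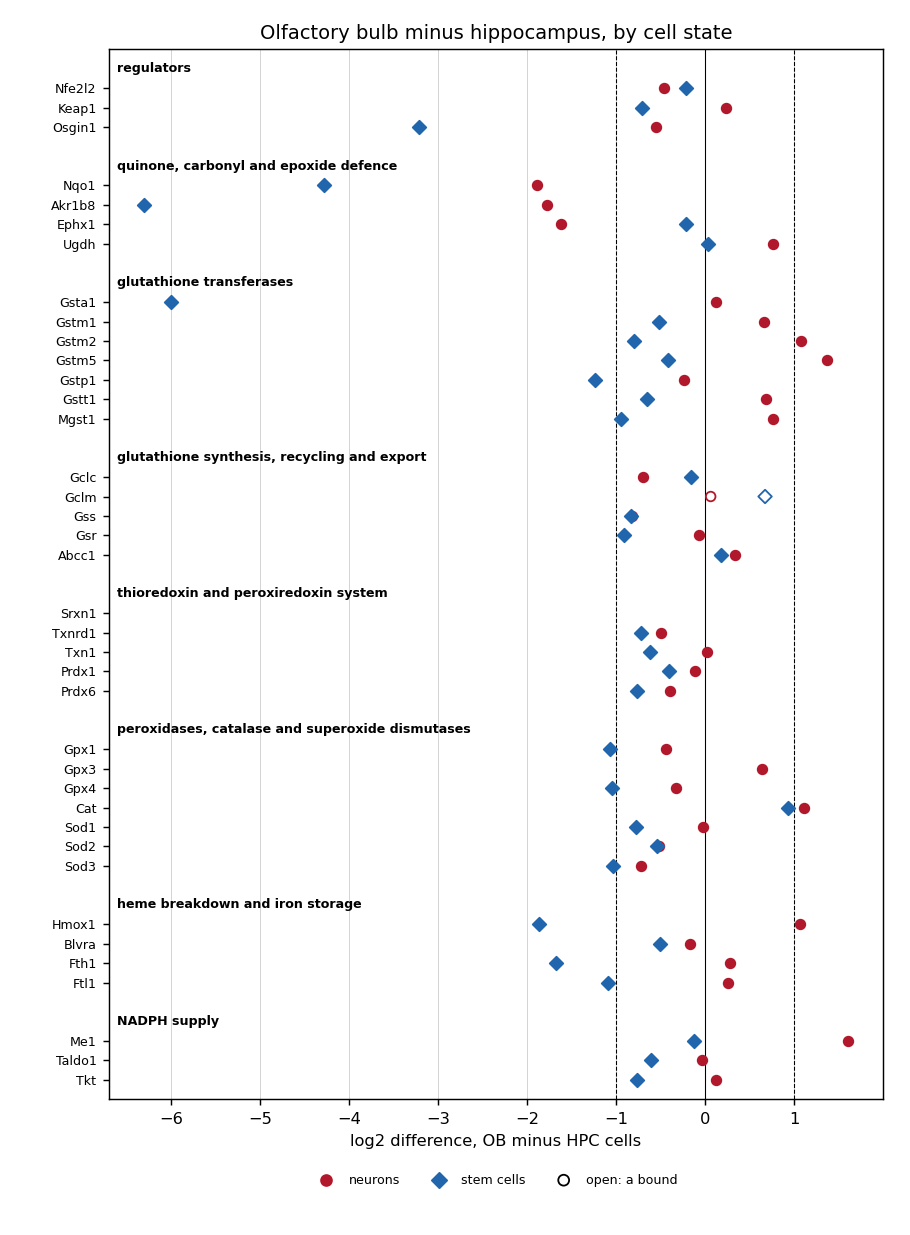
Log2 difference of OB minus HPC cells for each antioxidant gene, in neurons (circles) and in stem cells (diamonds); each point compares 2 arrays, open points are bounds, and dashed lines mark 2-fold. In stem cells Akr1b8 (-6.30), Gsta1 (-6.00), Nqo1 (-4.29) and Osgin1 (-3.21) lie farthest to the left, while in neurons no gene lies beyond -1.89 or 1.60.

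Between the neuron arrays the source differences were smaller. Of 37 genes compared, 5 were higher (13.5%, against 7.66% of 7000 genes) and 3 lower (8.11%, against 8.00%) in OB than in HPC neurons by 2-fold or more. The lower genes were Nqo1 (0.35 in OB neurons and 2.25 in HPC neurons), Akr1b8 (4.60 and 6.38, OB before HPC) and Ephx1 (2.57 and 4.20, OB before HPC). Ephx1 encodes microsomal epoxide hydrolase, which opens reactive epoxides with water. These 3 calls were kept under all alternatives.

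Gsta1 had levels of 5.94 in OB neurons and 5.82 in HPC neurons, a difference of 0.12, beside -6.00 between the stem cell arrays. Of 7 young neuron markers, 5 were lower in OB than in HPC neurons, and 3 of 9 astrocyte markers were higher and 2 lower; their part here was not tested. Osgin1 differed by -0.56 between the neuron arrays. The higher genes in OB neurons were Me1 (3.66 in OB neurons and 2.06 in HPC neurons), the mu-class transferase genes Gstm5 (difference 1.37) and Gstm2 (1.07), Cat (1.11) and Hmox1 (1.07). Me1 encodes malic enzyme, which makes NADPH in the cytosol. The calls of all 5 were lost with spike-in scaling, to values of 0.98 for Me1, 0.75 for Gstm5, 0.46 for Gstm2, 0.50 for Cat and 0.45 for Hmox1. With median scaling those of Gstm2 and Hmox1 were lost as well (0.97 each).

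Both source comparisons lay within a slide. The comparisons of neurons with stem cells set 1 slide against the other, so slide and cell state cannot be told apart in what follows. Of 37 genes compared in OB cells, 20 were higher in neurons by 2-fold or more (54.1%, against 26.9% of 7022 genes) and 1 was lower (2.70%, against 20.0%). Of 36 compared in HPC cells, 11 were higher (30.6%, against 21.9% of 6658 genes) and 5 lower (13.9%, against 26.8%). The 11 higher genes of HPC cells were all among the 20 of OB cells (55.0% of them). Medians were 1.06 in OB and 0.30 in HPC cells, where those of all genes were 0.08 and -0.32 in the same order. With median scaling they were 0.52 in OB and -0.16 in HPC cells, and with spike-in scaling 0.03 in OB and 0.74 in HPC cells.

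**Figure D3:**
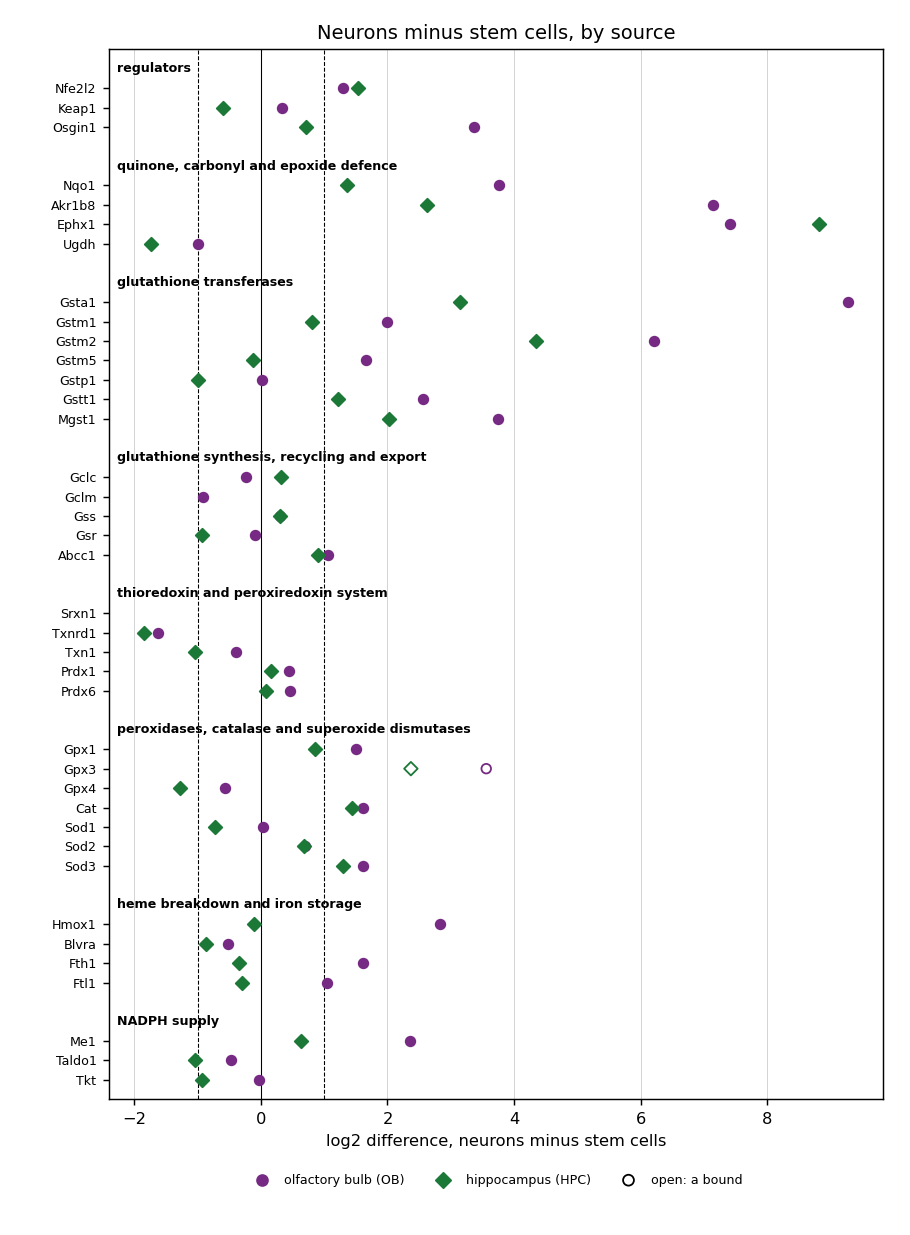
Log2 difference of neurons minus stem cells for each antioxidant gene in OB cells (circles) and HPC cells (diamonds); each point compares 2 arrays, open points are bounds, and dashed lines mark 2-fold. Ephx1 lies far to the right in both sources (7.41 in OB and 8.82 in HPC cells), while Gsta1 (9.27 in OB and 3.14 in HPC cells) and Akr1b8 (7.14 in OB and 2.62 in HPC cells) lie farther right in OB cells.

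Among the regulators, Nfe2l2 had levels of 3.70 in OB neurons and 2.41 in OB stem cells, a difference of 1.29. In HPC cells it was at 4.16 in neurons and 2.62 in stem cells, a difference of 1.54. Both neuron arrays thus lay above both stem cell arrays, although the OB difference came to 0.75 with median scaling and 0.26 with spike-in scaling. Keap1 was at 1.89 in OB neurons, 1.66 in HPC neurons, 1.55 in OB stem cells and 2.26 in HPC stem cells, with differences of 0.34 in OB and -0.60 in HPC cells, of which the OB value was -0.69 with spike-in scaling. Osgin1 was at -1.67 in OB neurons and -1.11 in HPC neurons, and thus higher than in stem cells by 3.36 in OB cells and by 0.71 in HPC cells.

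Ephx1 showed the largest difference of cell state in HPC cells among the 36 genes compared there. Its levels were 2.57 in OB neurons and 4.20 in HPC neurons, against -4.84 in OB and -4.62 in HPC stem cells. The signal was thus 170.6-fold higher in neurons in OB cells and 451.0-fold higher in HPC cells. With normexp background correction, whose offset of 50 pulls dim signals together, the log2 differences were 5.30 and 6.61 in that order. Akr1b8 was at 4.60 in OB neurons and 6.38 in HPC neurons, higher than in stem cells by 7.14 in OB and by 2.62 in HPC cells. Nqo1 was higher in neurons by 3.76 in OB and by 1.36 in HPC cells, and the HPC value came to 0.90 with median scaling. Ugdh, which makes the UDP-glucuronate used to conjugate toxic compounds and to build proteoglycans, had negative differences. Its levels were 1.99 in OB and 1.23 in HPC neurons, against 2.98 in OB and 2.95 in HPC stem cells (1.99-fold lower in OB and 3.31-fold lower in HPC neurons, so that the OB value just missed the threshold).

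Glutathione transferases join glutathione to electrophiles, and 6 of the 7 measured were higher in neurons in OB cells by 2-fold or more and 4 of 7 in HPC cells, where 26.9% of all genes were higher in OB and 21.9% in HPC cells. Gsta1 was higher by 9.27 in OB cells and by 3.14 in HPC cells. Gstm2, of the mu class, was at 0.91 in OB and -0.16 in HPC neurons, against -5.30 in OB and -4.50 in HPC stem cells. These are differences of 6.21 and 4.34, which came to 4.14 and 2.50 with normexp. Mgst1, a membrane-bound transferase that also reduces lipid peroxides, was at 4.11 in OB and 3.35 in HPC neurons, against 0.37 in OB and 1.33 in HPC stem cells.

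Gstt1, the theta-class member, was higher in neurons by 2.56 in OB and by 1.21 in HPC cells, the second value coming to 0.75 with median scaling. Gstm1 had levels of 2.12 in OB and 1.46 in HPC neurons, against 0.13 in OB and 0.65 in HPC stem cells (differences 1.99 and 0.81). Gstm5 was at 3.70 in OB and 2.33 in HPC neurons, against 2.03 in OB and 2.45 in HPC stem cells (differences 1.67 and -0.12). With spike-in scaling the OB calls of Gstm1 (0.96) and Gstm5 (0.64) were lost. The exception in OB cells was Gstp1, the pi-class member, at 5.96 in neurons and 5.95 in stem cells. In HPC cells it was at 6.20 in neurons and 7.19 in stem cells, and so was not among the higher genes of either source. Genes with close copies in the genome, among them Gsta1, Akr1b8, the Gstm genes and the ferritins, are uncertain, because cross-binding of a copy's RNA could not be checked.

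The enzymes that make and recycle glutathione differed less. Gclc, the catalytic subunit of the rate-limiting glutamate-cysteine ligase, was at -2.44 in OB and -1.74 in HPC neurons, against -2.21 in OB and -2.05 in HPC stem cells, a range of 0.70 log2 units for Gclc. The modifier subunit gene Gclm was dim, at -5.63 in OB neurons and -4.72 in OB stem cells, and was not well above background in HPC cells. Gss, which adds glycine in the last step, was at 2.19 in OB and 3.01 in HPC neurons, against 1.88 in OB and 2.72 in HPC stem cells. Gsr, which returns oxidized glutathione to its reduced form with NADPH, was at -2.40 in OB and -2.33 in HPC neurons, against -2.31 in OB and -1.40 in HPC stem cells. With scaling to the 75th percentile, none of these 4 genes reached 2-fold between cell states where they were compared. With spike-in scaling Gclm (-1.93), Gclc (-1.26) and Gsr (-1.11) did in OB cells. With median scaling Gclm did in OB cells and Gsr (-1.39) in HPC cells. Abcc1, which exports glutathione conjugates, had differences of 1.06 in OB and 0.91 in HPC cells. Its OB call was lost with median (0.52) and spike-in scaling (0.03), and in HPC cells it passed 2-fold with spike-in scaling (1.35), quantile normalization (1.23) and scaling on probes above background on all arrays (1.33).

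In the thioredoxin system, Txnrd1 was lower in neurons in both sources. This NADPH-dependent selenoenzyme keeps thioredoxin reduced. Its level was 0.98 in OB and 1.48 in HPC neurons, against 2.60 in OB and 3.32 in HPC stem cells. The differences of -1.62 in OB and -1.84 in HPC cells were kept under all alternatives, and its 3 probes lay between -1.86 and -1.41 in OB and between -1.84 and -1.65 in HPC cells. Thioredoxin itself (Txn1) was at 6.83 in OB and 6.81 in HPC neurons, against 7.23 in OB and 7.85 in HPC stem cells. The difference of -1.04 in HPC cells came to -0.01 with quantile normalization. Peroxiredoxins use thiols to remove peroxides. Prdx1 was at 5.88 in OB and 5.99 in HPC neurons, against 5.44 in OB and 5.84 in HPC stem cells. Prdx6 was at 2.57 in OB and 2.97 in HPC neurons, against 2.11 in OB and 2.88 in HPC stem cells. Neither reached 2-fold, and their positive OB differences (0.44 and 0.47) were negative with median scaling (-0.09 for Prdx1, -0.07 for Prdx6) and when scaled to the spike-ins (-0.58 for Prdx1, -0.56 for Prdx6). Of the 4 genes with TGACTCAGC, the range over the 4 arrays was 0.56 for Prdx1, 1.24 for Gstp1, 2.36 for Me1 and 9.04 for Ephx1. The part of the element in these ranges was not tested.

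Peroxidases and dismutases were divided. Gpx3, the secreted plasma glutathione peroxidase, was at -2.41 in OB and -3.04 in HPC neurons and not well above background in stem cells, so that it was at least 11.8-fold higher in OB and at least 5.17-fold higher in HPC neurons. The HPC bound came to 0.70 log2 units with normexp. Cat was at 1.44 in OB and 0.33 in HPC neurons, against -0.17 in OB and -1.10 in HPC stem cells (differences 1.61 and 1.44). Sod3 was at 5.69 in OB and 6.42 in HPC neurons, against 4.08 in OB and 5.12 in HPC stem cells (differences 1.61 and 1.30). The calls of Cat and Sod3 were lost with spike-in scaling in OB cells (0.59 and 0.58) and with median scaling in HPC cells (0.98 and 0.84).

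Gpx1, the cytosolic glutathione peroxidase, had differences of 1.50 in OB and 0.86 in HPC cells, so that the OB one was called. Which source passed 2-fold depended on the scaling, since the OB value came to 0.96 with median and 0.47 with spike-in scaling, and the HPC value to 1.30 with spike-in scaling and 1.70 with quantile normalization. Gpx4 reduces lipid peroxides in membranes and holds back ferroptosis. It was at 5.08 in OB and 5.41 in HPC neurons, against 5.65 in OB and 6.69 in HPC stem cells. Its differences were of the other sign, -0.57 in OB and -1.28 in HPC cells, the second coming to -0.41 with quantile normalization. The intracellular dismutase genes were not called, although the HPC difference reached -1.19 for Sod1 with median scaling and 1.12 for Sod2 with spike-in scaling. Sod1, the copper and zinc enzyme of the cytosol, was at 7.29 in OB and 7.31 in HPC neurons, against 7.26 in OB and 8.05 in HPC stem cells. Sod2, the manganese enzyme of mitochondria, was at -0.12 in OB and 0.40 in HPC neurons, against -0.82 in OB and -0.28 in HPC stem cells.

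Of the 4 heme and iron genes, 3 were higher in neurons by 2-fold or more in OB cells and 0 in HPC cells, against 26.9% of all genes in OB and 21.9% in HPC cells. Hmox1 was at 3.55 in OB neurons and 0.72 in OB stem cells, against 2.49 in HPC neurons and 2.59 in HPC stem cells. Its differences were thus 2.83 in OB and -0.11 in HPC cells. Fth1 was at 7.34 in OB and 7.06 in HPC neurons, against 5.73 in OB and 7.41 in HPC stem cells. Ftl1 was at 8.76 in OB and 8.50 in HPC neurons, against 7.71 in OB and 8.80 in HPC stem cells. In both, the OB stem cell array was the low one, and the differences were 1.61 and 1.04 in OB cells and -0.34 and -0.30 in HPC cells. The HPC values changed sign with quantile normalization (0.61 and 0.60). The OB calls of both ferritin genes were lost with spike-in scaling (0.58 and 0.01). Blvra was at 1.69 in OB and 1.86 in HPC neurons, against 2.21 in OB and 2.72 in HPC stem cells.

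Among the suppliers of NADPH, Me1 was higher in neurons by 2-fold or more in OB cells, and the pentose phosphate enzymes were not. Me1 was at 3.66 in OB and 2.06 in HPC neurons, against 1.30 in OB and 1.43 in HPC stem cells, which gave differences of 2.36 in OB and 0.63 in HPC cells, the second coming to 1.07 with spike-in scaling. Taldo1 was at 5.13 in OB and 5.17 in HPC neurons, against 5.60 in OB and 6.20 in HPC stem cells, and its HPC difference of -1.03 came to -0.22 with quantile normalization. Tkt was at 8.54 in OB and 8.43 in HPC neurons, against 8.58 in OB and 9.35 in HPC stem cells. Its OB difference of -0.04 was 0.27 with quantile normalization and -1.06 with spike-in scaling.

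The difference of cell state was then set side by side between the sources, as the change in OB cells minus the change in HPC cells. A gap of 2 log2 units (4-fold) was called. It was computed for genes with 4 arrays well above background. Of 35 genes, 5 had a larger change in OB cells (14.3%, against 2.55% of 5495 genes) and 0 a smaller one, against 1.58%. They were Gsta1 (6.12), Akr1b8 (4.52), Hmox1 (2.94), Osgin1 (2.65) and Nqo1 (2.40). With spike-in scaling Gsta1 (4.66) and Akr1b8 (3.06) remained past 4-fold, Hmox1 (1.48), Osgin1 (1.19) and Nqo1 (0.93) fell short of it, and Ephx1 (-2.87) and Gclc (-2.01) had a smaller change in OB cells. With normexp Nqo1 (1.46) and Osgin1 (1.35) fell short. In 4 of the 5, Hmox1 excepted, both sources had a positive difference. Fth1 (1.95) and Gstm2 (1.87) lay just under the threshold, and Ephx1 had the lowest value (-1.40). The median was 0.76 over these genes and 0.34 over all genes, and with spike-in scaling -0.71 and -1.12.

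**Figure D4:**
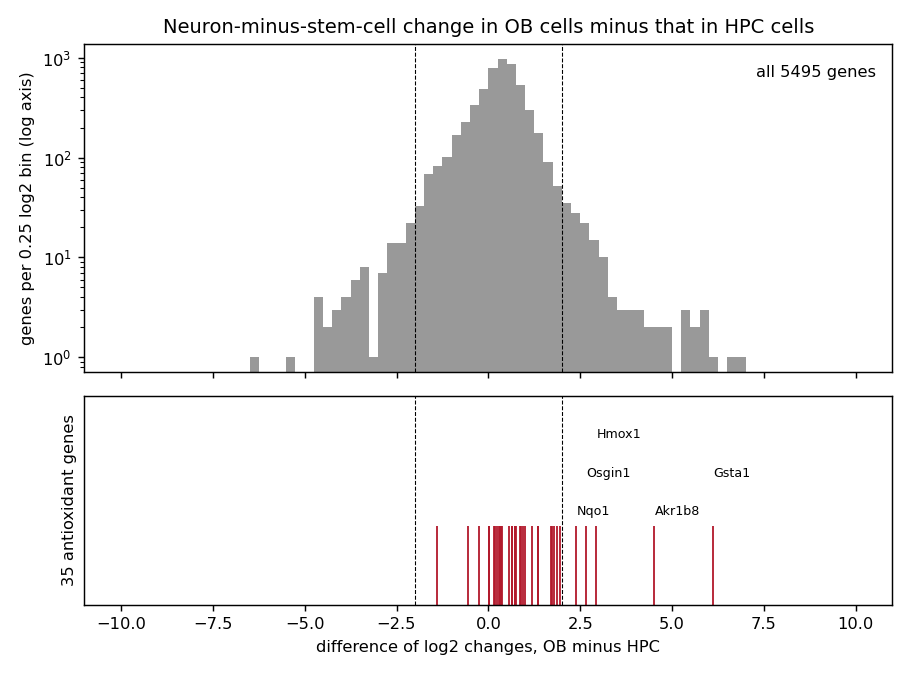
Top, the difference of log2 changes (OB minus HPC cells, each neurons minus stem cells) for all 5495 genes well above background on the 4 arrays, as a histogram with a log axis of counts; bottom, the same quantity for 35 antioxidant genes, 1 line each, with dashed lines at 4-fold. Gsta1 (6.12), Akr1b8 (4.52), Hmox1 (2.94), Osgin1 (2.65) and Nqo1 (2.40) lie right of the upper line, and no antioxidant gene lies left of the lower line.

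A list of 81 other genes of glutathione, thioredoxin, metal and oxidant metabolism gives the surroundings of these genes, and 59 of them had a named probe. In OB cells 24 of 59 were higher (40.7%, against 26.9% of all genes) and 5 lower (8.47%, against 20.0%) in neurons by 2-fold or more. In HPC cells 17 of 58 were higher (29.3%, against 21.9%) and 13 lower (22.4%, against 26.8%). Between the stem cell arrays 0 of 47 were higher (against 4.16%) and 9 lower (19.1%, against 6.98%) in OB cells. Between the neuron arrays 5 of 59 were higher and 5 lower in OB cells (8.47% each, against 7.66% and 8.00%). The medians were 0.72, -0.12, -0.69 and 0.02 in the order of these 4 comparisons.

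Gsta3, another alpha-class transferase, was at 3.73 in OB and 3.69 in HPC neurons, against -3.27 in OB and 0.95 in HPC stem cells. It was thus also lowest on the OB stem cell array, and the HPC stem cell array lay below both neuron arrays too. Its source difference was -4.22 in stem cells and 0.04 in neurons, beside -6.00 and 0.12 for Gsta1. Cross-binding of RNA between Gsta1 and Gsta3 could not be checked. Other genes lower in OB stem cells were Aldh3a1, an aldehyde dehydrogenase (-1.53), Sqstm1, the autophagy receptor p62 that binds Keap1 (-1.43), and the metallothionein gene Mt3 (-1.23). Aldh3a1 was also lower in OB neurons (-1.52).

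The metal-binding Mt1 was higher in neurons by 4.90 in OB and by 2.64 in HPC cells. Ggt1, which splits extracellular glutathione, was higher by 4.14 in OB and by 4.17 in HPC cells, and the epoxide hydrolase gene Ephx2 by 3.86 in OB and by 1.88 in HPC cells. The glutaredoxin gene Glrx was at 1.74 in OB and 3.73 in HPC neurons, against 0.82 in OB and 0.43 in HPC stem cells, so its difference was 0.92 in OB and 3.30 in HPC cells. Slc1a1, a glutamate and cysteine transporter, was lower in neurons by 4.36 in OB and by 2.87 in HPC cells. Ggt7 (-3.14 in OB and -2.33 in HPC cells) and Akr7a3 (-2.52 and -2.50, in that order) were lower as well. The mitochondrial peroxiredoxin gene Prdx3 was at 3.68 in OB and 4.09 in HPC neurons, against 5.68 in OB and 6.06 in HPC stem cells. In neurons, Aco1 (1.46), Mt1 (1.43), Ephx2 (1.19) and Gstk1 (1.12) were higher in OB than in HPC cells, and Glrx (-1.99), Slc1a1 (-1.44) and Ggt7 (-1.32) lower.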

How the data were processed

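Spot values came from Agilent Feature Extraction 10.5.1.1, per the submitters' processing notes and the file headers. The deposited values are the fluorescence intensity of each spot, with background subtracted within the array and no normalization between arrays, per the file headers. The authors' series table repeats these intensity values. The 2 neuron arrays shared a slide, as did the 2 stem cell arrays, and the probe design used build rn4, per the file headers.

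The processed signal was converted to log2, spots marked as outliers were left out, spots of a probe were averaged, and the 75th percentile of the array's probes was taken off. From 41012 non-control probes, 254 were left out as outliers. Accessions without version numbers were matched to a RefSeq gene table (GRCr8, names only): 10783 of 40758 probes matched 1 gene, 0 several and 29975 none. The files hold no gene name column. A gene with several probes was represented by its brightest probe, by the mean of the 4 levels. A side not well above background was set to that array's dimmest signal passing the background test, or to its own signal if higher. No spot was saturated. With 1 array per group, no test was run, and the number of arrays limits the precision.

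The genes, the lists and the rule for named genes were chosen with earlier results of these data known. The rule took genes with a range of 2 log2 units or more, Nfe2l2, Keap1, up to 3 per role with the smallest range, and up to 4 other pathway genes per direction and comparison measured on both arrays. Normexp (limma 3.58.1, offset 50) used median spot signals, the spot signal that the files hold. The other alternatives were quantile, median and spike-in scaling, scaling on probes above background on all arrays, 2 other filters, the mean over probes and the authors' table. Calling was tested on simulated data, in which the planted changes were all larger than the threshold and cultures had no spread. That test cannot speak for calls near the threshold. Cell type markers were lists for stem cells, young and mature neurons, astrocytes, stroma, microglia, endothelium and oligodendrocytes.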

Additional observations from a re-analysis of the deposited data

Results flagged for a closer look

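Hmox1, the heme oxygenase gene, differed between the sources in opposite directions in stem cells and in neurons. It was lower in OB than in HPC stem cells (-1.87 log2) and higher in OB than in HPC neurons (1.07). With spike-in scaling the values were -1.02 and 0.45. This difference between the states was not tested, since each value compares 2 arrays.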

How the results depend on the processing

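Of 56 called differences, 28 were kept under every alternative, and 0 changed sign. For each of the others, at least 1 value that ended the call is in the report. Of 90 differences not called, 35 passed 2-fold under an alternative. Counts of genes past the threshold moved with the scaling as follows, with the main count in brackets. With spike-in scaling, which used 7 control probes, 11 genes were higher (20) and 12 lower (1) in neurons in OB cells, and 17 higher (11) and 2 lower (5) in HPC cells. In the same setting 3 were higher (0) and 5 lower (11) in OB than in HPC stem cells, and 0 higher (5) and 12 lower (3) in OB than in HPC neurons. There, 2 genes had a larger change in OB cells (5) and 2 a smaller one (0). With median scaling, 6 were lower (1) in neurons in OB cells, 7 higher (11) and 11 lower (5) in HPC cells, and 3 higher (5) in OB than in HPC neurons. Scaling on probes well above background on all arrays gave 17 higher (11) and 2 lower (5) in HPC cells, and 1 higher (0) and 7 lower (11) in OB stem cells. Quantile normalization gave 2 lower (1) in OB cells, 3 lower (5) in HPC cells and 6 lower (11) in OB stem cells. Normexp gave 2 lower (1) in OB cells, 3 lower (5) in HPC cells and 3 with a larger change in OB cells (5). The cause was not tested.

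The median of all genes in the 4 comparisons (OB state, HPC state, stem cells, neurons) was 0.08, -0.32, -0.43 and -0.01. It was -0.41, -0.78, -0.45 and -0.11 with median scaling, -0.90, 0.12, 0.42 and -0.62 with spike-in scaling, 0.37, 0.10, -0.26 and 0.00 with scaling on probes above background on all arrays, and 0.00, -0.13, -0.25 and 0.00 with quantile normalization. Higher genes made up 57.4%, 44.9%, 37.4% and 48.9% of all genes called in the same order, against 37.0%, 28.8%, 34.8% and 42.9% with median scaling, 25.4%, 66.5%, 93.9% and 14.5% with spike-in scaling, and 69.6%, 65.9%, 55.8% and 51.0% with scaling on probes above background on all arrays. Restricted to genes above background on every array, these shares were 45.7%, 32.3%, 39.2% and 46.0%. Naming by accession alone was not run as an alternative, since the files hold no gene names. No paired analysis was possible because each group has 1 array. Dim probes (Gclm, Gpx3 and Srxn1) are limited by signal over background.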

Other observations

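Several further genes of oxidant and glutathione metabolism were well above background on both neuron arrays and on neither stem cell array. They were taken from the list of other pathway genes after their values were seen. Cyba, a membrane subunit of the superoxide-making NADPH oxidase, was at 3.88 in OB and 3.68 in HPC neurons, higher than in stem cells by at least 9.85 log2 units in OB and 9.09 in HPC cells. The oxidase genes Cybb and Nox4 of the same list were dim. Cybb was at -5.66 in OB and -5.19 in HPC neurons, with bounds of 0.30 in OB and 0.22 in HPC cells. Nox4 was well above background on the OB neuron array alone (-5.09). Msrb2, a mitochondrial methionine sulfoxide reductase gene, was higher by at least 9.32 in OB and 7.97 in HPC cells. For the glutathione-splitting Ggt5 the bounds were 6.04 in OB and 6.17 in HPC cells, and for the retinaldehyde dehydrogenase gene Aldh1a1 they were 5.96 and 4.41 in that order. Xdh, which encodes xanthine dehydrogenase, was higher by at least 5.15 and 4.58, in the same order. The slides differ between these arrays as stated for the comparison of cell states.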
